A study of Mus musculus with 8 samples.

Results

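The genes described here encode the TGF-beta, BMP and activin pathway. They are 35 genes chosen by name as ligands, receptors, Smads, antagonists and targets, out of 21631 protein-coding genes on chromosomes 1 to 19 and X. For each gene, CpG positions were taken from inside its RefSeq span on mm10 and within 2 kb of both of its ends, which gave 48906 of 32984740 positions. The cells were quiescent muscle stem cells from limb muscle of male C57BL/6 mice, sorted as CD45-, CD31-, Sca1- and VCAM+. Their DNA methylation was read by bisulfite sequencing of the whole genome, in which an unmethylated cytosine appears as a thymine. The groups were 4 young mice (4 months) and 4 old mice (22 months), for which the labels name no treatment, with 1 animal per library. The deposited table gives 1 level and 1 dispersion value per age for each position, with the authors' p-value and FDR, so the values below are group values without an SD, and the spread between animals cannot be shown. The labels state 115 to 200 M reads per library, but the depth at each position is unknown.

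TGF-beta family ligands are secreted dimers that bring together type II and type I receptor kinases. TGF-beta, activin and myostatin signal mainly through Smad2 and Smad3, and BMPs through Smad1, Smad5 and Smad9, each with the shared partner Smad4, while Smad6 and Smad7 dampen the signal. In muscle, myostatin limits muscle mass, follistatin binds and blocks myostatin and activins, and BMP signalling drives the Id genes, whose products hold back differentiation. Methylation of a CpG-rich gene start is commonly linked to a silent gene, and most active and many poised starts are unmethylated.

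Levels at the gene starts of cell type markers are given as a description of the sorted cells. The start windows of 9 muscle stem cell markers had a median level of 10.9% in young and 10.6% in old cells, against 70.2% and 67.5% for 7 blood markers and 67.3% and 69.8% for 7 endothelial ones. Fibro-adipogenic markers (5 genes) had medians of 43.5% and 44.2%, although Pdgfra was as low as 10.3% in both ages, and muscle fibre markers (5 genes) 56.2% and 58.0%. Single genes overlapped between the lists: Erg (15.2%), Tek (20.8%) and Kdr (23.8%) among the endothelial markers and Spi1 (29.1%) among the blood markers were lower in young cells than the muscle stem cell marker Cdh15 (36.0%). The lists also differed in CpG content. Start windows held 66 to 342 positions for muscle stem cell markers, 44 to 162 for blood markers and 66 to 273 for endothelial ones. The part of CpG content in these levels was not tested, so they do not check the sort. A level of DNA methylation does not show whether a gene is transcribed, and a share of other cells in the sort was not tested.

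The promoters of these genes ranged from CpG-dense and unmethylated to CpG-poor and methylated. RefSeq promoters, from 250 bases before to 50 bases after a transcript start, were found for 25 of the 35 genes (31 promoters, GRCm38.p6, the build family of mm10). The 21 promoters with 15 or more CpGs stood between 2.00% and 6.69% in young and between 1.79% and 6.33% in old cells. The 10 promoters with 12 or fewer CpGs ran from 3.97% to 90.2% in young and from 3.55% to 93.1% in old cells. The lines below show the 250 bases before the start of a BMP target, the muscle growth inhibitor and a stress-induced ligand, to set the dense state beside the sparse one. Capitals mark CpGs, and each sequence is written 5′ to 3′ on the strand of its gene.
Id3: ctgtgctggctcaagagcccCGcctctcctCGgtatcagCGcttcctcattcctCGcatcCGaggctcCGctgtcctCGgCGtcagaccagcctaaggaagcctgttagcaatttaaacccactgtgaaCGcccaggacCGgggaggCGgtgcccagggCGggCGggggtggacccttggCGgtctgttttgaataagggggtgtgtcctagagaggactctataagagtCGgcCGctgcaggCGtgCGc
Mstn: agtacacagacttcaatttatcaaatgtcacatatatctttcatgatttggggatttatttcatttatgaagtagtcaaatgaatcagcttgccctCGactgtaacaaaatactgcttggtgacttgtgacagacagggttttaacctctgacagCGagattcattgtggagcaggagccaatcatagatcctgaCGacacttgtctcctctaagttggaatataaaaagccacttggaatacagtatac
Gdf15: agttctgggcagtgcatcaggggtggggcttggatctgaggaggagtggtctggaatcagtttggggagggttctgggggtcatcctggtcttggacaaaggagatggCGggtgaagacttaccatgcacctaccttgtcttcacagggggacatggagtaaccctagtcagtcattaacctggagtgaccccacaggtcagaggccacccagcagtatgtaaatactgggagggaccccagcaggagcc

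The stretch before Id3 (chr4:136143572-136143821, plus strand) held 18 CpGs with levels of 3.12% (young) and 3.13% (old) over 37 positions. The stretch before Mstn (chr1:53061390-53061639, plus strand) held 3 CpGs at 39.9% and 38.4%. The stretch before Gdf15 (chr8:70632457-70632706, minus strand) held a lone CpG at 84.2% and 84.1%. These 3 stretches thus kept their order of level in both ages.

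Letters of Smad-binding motifs were looked for in the same promoters. The palindrome GGCGCC, a core of BMP-responsive elements that holds a CpG, was present in 9 of 31 promoters (29.0%) from 8 genes, against 11.95% of 32619 promoters of all genes. The motif holds a CpG, and the promoters here had a median of 27 CpGs against 7 for all, so the shares compare promoters of unlike CpG content. A Smad5 site lies in overlapping promoters, which leaves 8 distinct sites. Its CpG was covered in each case and stood between 2.03% and 4.06% in young and between 1.91% and 3.79% in old cells. None of these sites had a p-value under 0.05 in the authors' deposited table. The palindromic Smad-binding element GTCTAGAC was present in 1 promoter, that of Smad6, and in 0.215% of all promoters. Each of these motifs reads the same on both strands, and they do not overlap each other. The promoter lines of a BMP receptor and of a BMP antagonist show the motif GGCGCC in capitals.
Bmpr2: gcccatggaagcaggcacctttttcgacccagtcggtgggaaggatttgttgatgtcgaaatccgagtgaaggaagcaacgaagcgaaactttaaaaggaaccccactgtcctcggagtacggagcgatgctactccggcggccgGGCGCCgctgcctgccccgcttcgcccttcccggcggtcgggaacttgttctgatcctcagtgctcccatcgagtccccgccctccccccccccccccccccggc
Grem1: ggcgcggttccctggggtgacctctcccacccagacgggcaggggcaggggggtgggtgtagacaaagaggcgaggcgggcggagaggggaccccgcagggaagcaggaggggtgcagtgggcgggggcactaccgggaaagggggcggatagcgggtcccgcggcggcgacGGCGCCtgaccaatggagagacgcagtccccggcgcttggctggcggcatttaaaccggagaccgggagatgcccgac

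In Bmpr2 (chr1:59764029-59764278, plus strand) the motif began 105 bases before the start, and its CpG stood at 4.06% in young cells and 3.01% in old cells. In Grem1 (chr2:113758649-113758898, minus strand) it began 78 bases before the start, at 2.78% and 2.79%. A match of letters is a description of the sequence and does not show that a Smad binds there.

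Most starts of the pathway were nearly unmethylated at both ages. A start window reached 2 kb to each side of the 5′ end of the gene span or, for the 10 genes whose strand was not in the promoter table, of the less methylated end. The median over the 35 start windows was 9.25% in young and 9.52% in old cells, and 28 genes were under 20% in both ages, while the median over 20749 start windows of all genes was 23.1% in both. The difference between the ages was under 1 point in 32 of the 35 genes. The test took the authors' p-values over a window and doubled their median. With Benjamini-Hochberg adjustment over 41348 end windows of all genes, 0 of the 70 end windows of the pathway passed 0.05, and the background was 0% of all windows. Before adjustment 0 of the 70 and 8 of all windows (0.0193%) were under 0.05. The power of this test in these data is not known, so 0 calls do not show equal levels.

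**Figure D1:**
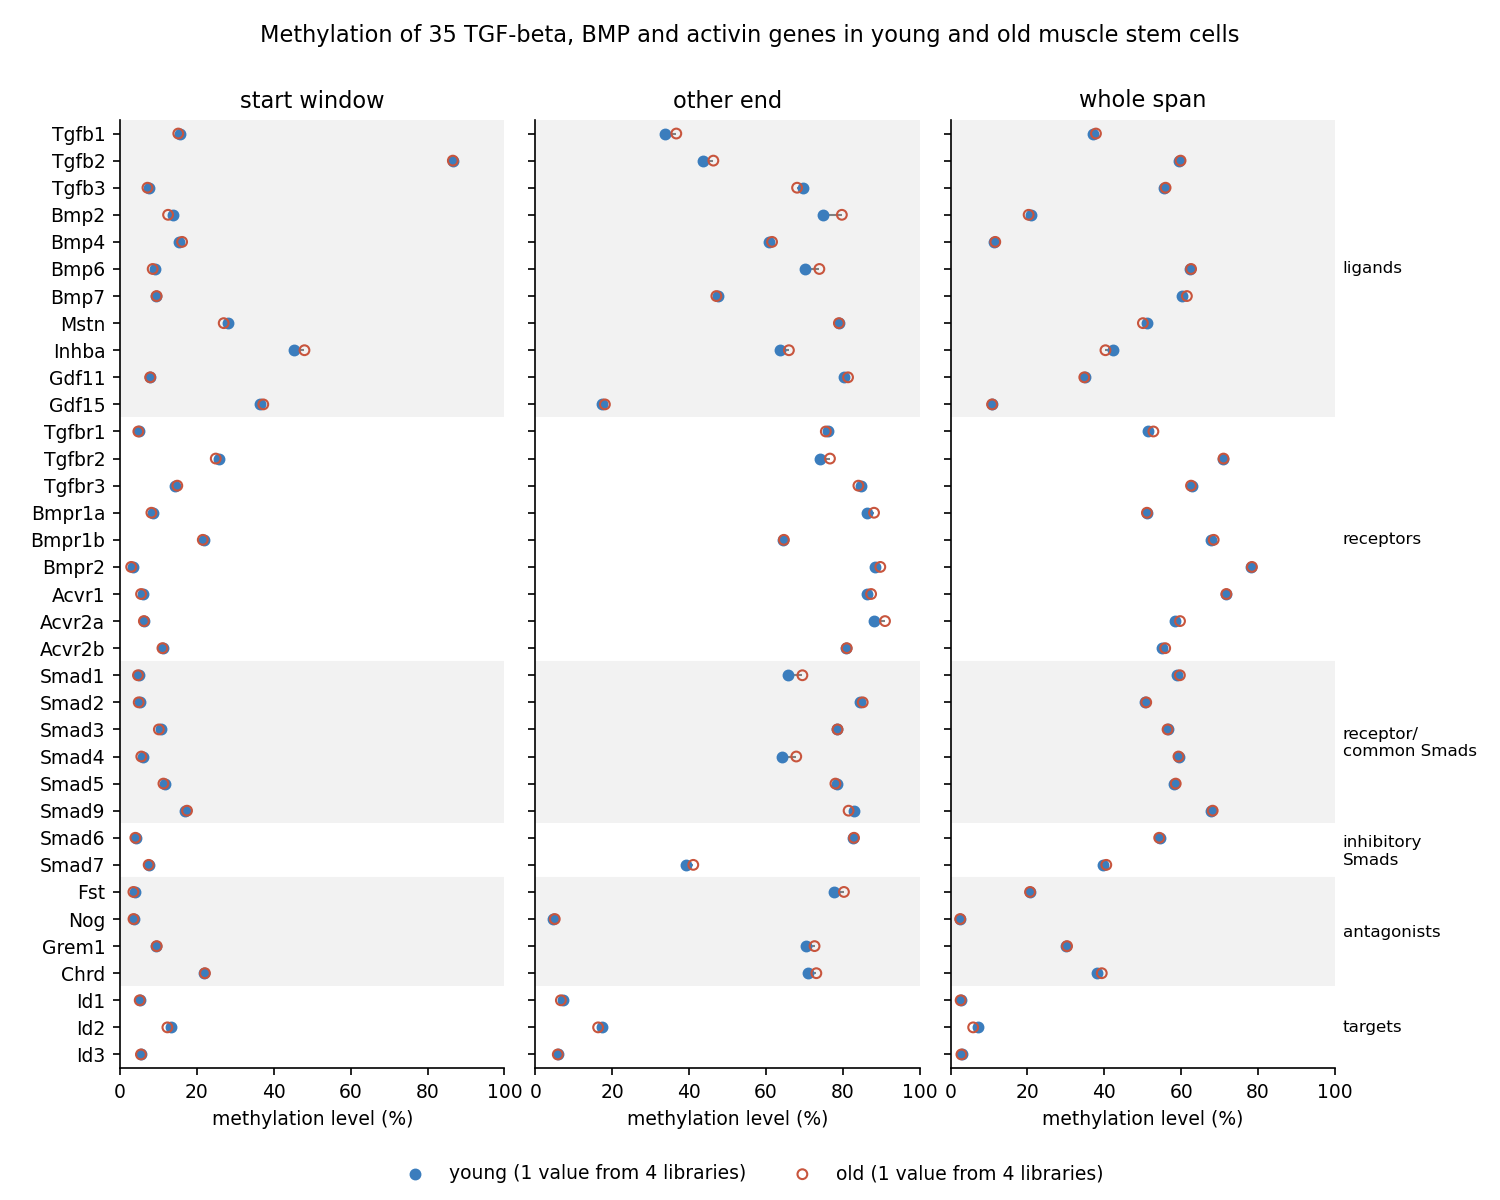
Methylation level (%) of the 35 genes in young (filled) and old (open) cells, 1 value per age made from 4 libraries, in the start window, the window at the other end and the whole span, with genes grouped by role. Start windows lie mostly under 20%, other ends mostly above 60%, and the ages differ by at most 4.81 points in any window.

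Among the ligands, the BMP and TGF-beta genes had low starts, and Inhba, Gdf15, Mstn and Tgfb2 stood higher. Tgfb1, the most studied isoform, stood at 15.5% in young cells and 15.2% in old cells in its start window, and Tgfb3 at 7.55% and 7.14%. The Tgfb1 window also covers part of the neighbouring gene B9d2. Bmp2, an inducer of bone and cartilage, stood at 13.8% and 12.5%, the lowest difference of the group at -1.27 points, and Bmp4 at 15.4% and 16.2%. Bmp6 stood at 9.01% and 8.50%, Bmp7 at 9.25% and 9.52%, and Gdf11, the closest relative of myostatin, at 7.83% and 7.85%. Mstn, the gene of myostatin, stood at 28.2% and 27.0%. Gdf15, which is induced by cell stress, stood at 36.5% and 37.3%. The ligands were split, with 5 of 11 higher and 6 lower in old, and the median difference was -0.03 points.

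In Tgfb2 and Inhba the end of the span and the RefSeq promoter differed in level. The 5′ end of the Tgfb2 span stood at 86.6% in both ages, but the RefSeq transcript start lies 3.71 kb inside the span, and its promoter had levels of 5.03% (young) and 4.81% (old) over 20 positions. Inhba, which encodes the subunit of activin A, stood at 45.4% and 48.0% at its span end over 27 positions. Its RefSeq start lies 7.60 kb inside, and that promoter stood at 5.10% and 5.12%. The difference of 2.60 points at the Inhba span end was thus far from its transcript start. Bmpr1b differed from both, since its span end stood at 21.9% and 21.5% while its RefSeq starts, 187 to 238 kb further in, stood between 8.38% and 11.6% in young and between 10.1% and 12.2% in old cells. Tgfbr1 has a RefSeq start in methylated sequence, at 90.2% and 93.1% over 6 positions, and another at 2.56% and 2.80%. Both RefSeq starts of Gdf15 lie in methylated sequence, at 57.2% and 62.7% over 13 positions and at 84.2% and 84.1% over 2.

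The receptor genes had low starts, and 8 of 9 stood slightly lower in old cells. With windows of 1 kb this was 6 of 9, since Acvr2a (0.01 points) and Acvr2b (0.28 points) were then higher in old. Bmpr2, the type II receptor for BMPs, had the lowest at 3.32% in young cells and 2.91% in old cells, and Tgfbr2, the type II receptor for TGF-beta, the highest at 25.8% and 24.9%. Their type I partners Tgfbr1 (4.90% and 4.77%) and Bmpr1a (8.61% and 8.16%) lay between them. The activin receptor genes Acvr1 (5.91% and 5.48%), Acvr2a (6.23% and 6.21%) and Acvr2b (11.2% and 11.03%) were also low. Tgfbr3, the co-receptor betaglycan, stood at 14.3% and 14.9% and was the exception in direction. The median difference over the 9 genes was -0.33 points, and none of these windows passed the test. The Acvr1 window also covers part of the neighbouring gene Upp2, so its positions belong to both.

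The Smad gene starts ranged from 4.04% (Smad6) to 16.9% (Smad9) in young cells, and each differed by under 1 point between the ages. Smad1 stood at 5.03% in young cells and 4.67% in old cells, Smad5 at 11.6% and 11.3% and Smad9 at 16.9% and 17.4%, which are the Smads of the BMP branch. Smad2 stood at 5.10% and 4.87% and Smad3 at 10.5% and 10.1%, the Smads of the TGF-beta and activin branch. The shared Smad4 stood at 5.95% and 5.54%. Of these 6 genes 5 were lower in old, with a median of -0.34 points and Smad9 as the exception. The inhibitory Smads stood at 4.04% and 3.99% (Smad6) and at 7.52% and 7.45% (Smad7).

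The antagonists and targets were low too, apart from Chrd. Fst, the gene of follistatin, stood at 3.79% in young cells and 3.48% in old cells, and Nog, which encodes the BMP trap noggin, at 3.57% and 3.51%. Grem1, another BMP antagonist, stood at 9.37% and 9.55%. Chrd, the gene of chordin, stood at 21.9% and 22.1% in a window that also covers part of Thpo, while its RefSeq promoter stood at 3.04% and 2.58%. The Id genes, which encode inhibitors of DNA binding, stood at 5.21% and 5.13% (Id1), 13.3% and 12.3% (Id2) and 5.34% and 5.45% (Id3). Over their short spans the Id genes were lower in old in 3 of 3 cases, Id2 at 7.03% and 5.89% and the others by at most 0.163 points. Windows of the 5 genes shorter than 4 kb (Id1, Id2, Id3, Nog and Gdf15) overlap, so their ends are not separate measurements.

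The start windows of the pathway were set against those of all genes. The median difference was -0.21 points with 25 of 35 lower (71.4%), against 0.03 points and 48.2% lower over all start windows. Starts with low levels were also compared alone. Over the 9186 start windows of all genes under 20% the median was -0.05 points with 54.6% lower, and over the 28 of the pathway it was -0.22 points with 21 lower. With windows of 1 kb in place of 2 kb the median of the pathway was -0.07 points with 22 of 35 lower. At the RefSeq promoters themselves, 17 of 29 with at least 10 positions were lower in old (58.6%), close to the 58.2% of 19213 promoters of all genes, with medians of -0.13 and -0.06 points. No test of these shares was run, and the values have no error between animals.

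At the other end, mostly the 3′ end, 25 of 35 genes were higher in old with a median difference of 0.84 points, against 60.6% and 0.42 points over all genes. Bmp2 had the widest difference of any end, from 74.9% in young to 79.7% in old (81 positions, 4.81 points, test p 0.795). It was followed by Bmp6 (70.03% and 73.9%), Smad4 (64.1% and 67.9%), Smad1 (65.9% and 69.5%), Tgfb1 (33.7% and 36.7%) and Acvr2a (88.2% and 91.0%). The other end of Bmp6 overlaps Txndc5, and that of Acvr2a overlaps Orc4. All 4 antagonists were higher there, with a median of 2.22 points, and all 3 Id genes lower, with a median of -0.64 points. With windows of 1 kb, Fst (-0.05 points) and Grem1 (-1.77 points) were lower in old. Nog (1.70 points) and Chrd (2.97 points) were still higher, and the 3 Id genes still lower. None of these windows passed the test.

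Over whole spans 21 of 35 genes (60%) were higher in old, with a median of 0.18 points, against 72.0% of 20483 spans and a median of 0.39 points. Relative to the median of all spans, the median of the pathway was thus lower, at -0.21 points. Inhba was the span with the widest difference, from 42.2% in young to 40.3% in old (436 positions). Id2 (7.03% and 5.89%) was the next on the lower side, and on the higher side stood Tgfbr1 (51.5% and 52.8%), Bmp7 (60.2% and 61.5%), Chrd (38.1% and 39.3%) and Acvr2a (58.5% and 59.7%). Levels of spans ran from 2.59% in Nog to 78.0% in Bmpr2 in young cells, and 21 of the 35 were at 50% or more. No span of the pathway was called (0 of 35 with Benjamini-Hochberg adjustment, background 0%), 0 had an unadjusted p under 0.05, and over all genes 2 spans (0.00976%) did. Without their 2-kb ends, 30 spans of the pathway could be measured and 21 of these were higher, with a median of 0.43 points.

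**Figure D2:**
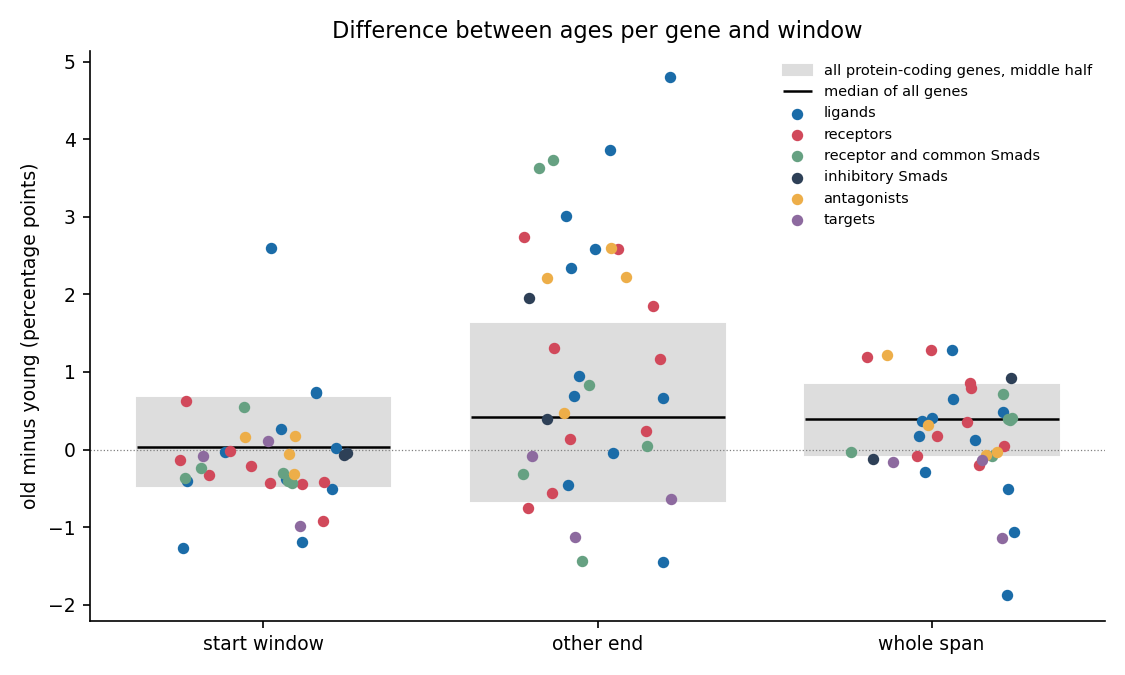
Old minus young (percentage points) per gene in the start window, at the other end and over the whole span, with genes coloured by role, grey boxes from the lower to the upper quartile of all protein-coding genes and black lines for their medians. Most start windows lie just below 0 (25 of 35 lower), whereas 25 of 35 other ends lie above it, up to 4.81 points in Bmp2.

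The positions of the pathway were also sorted by their mean level over both ages. The 14240 positions under 20% averaged 5.20% (young) and 5.02% (old), a difference of -0.181 points against -0.123 points over all such positions. Positions from 60% to 80% stood at 71.7% and 72.4% (0.740 points against 0.663 over all), and those of 80% or more at 87.0% and 87.6% (0.596 against 0.550). Between 20% and 60% the averages were 42.8% and 42.7%, which differ by -0.0299 points, where all such positions of the genome differed by 0.359 points. Over all its positions the pathway stood at 53.7% in young cells and 54.0% in old cells.

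Around the starts, the unmethylated stretch was centred just inside the gene. In bins of 500 bp, the median over the genes was 2.53% in young and 2.47% in old cells in the first 500 bp of the gene and 3.74% and 3.88% in the 500 bp before it. It reached 65.5% and 64.8% at 1 to 1.5 kb before the start. On the inner side the climb was slower, with 14.4% and 14.0% at 1.5 to 2 kb and 72.2% and 72.8% only at 3.5 to 4 kb. Of the 32 genes with positions at 1.5 to 2 kb inside the gene 8 were higher in old, and the median difference was -0.49 points. This was the lowest such count of the bins. The bins beside it had 15 of 35 genes higher (-0.13 points, at 1 to 1.5 kb) and 15 of 34 (-0.30 points, at 2 to 2.5 kb). No values over all genes are given for these bins.

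**Figure D3:**
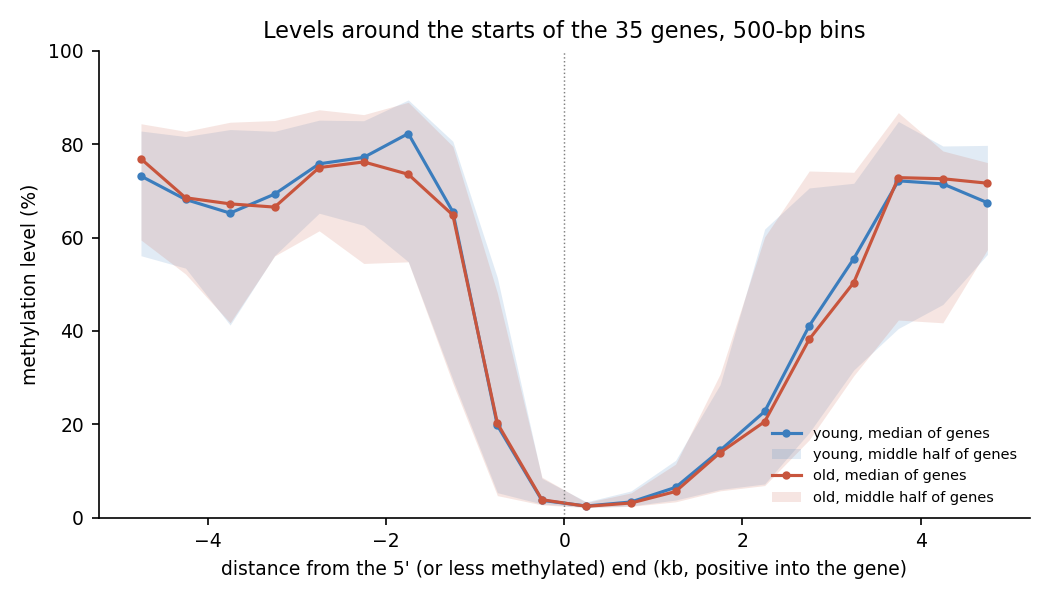
Median methylation level (%) of the genes in 500-bp bins from 5 kb before to 5 kb inside the start (kb on the x axis), young in blue and old in red, with bands from the lower to the upper quartile of the genes. The curves lie together near 2.5% just inside the start. Where they part at 1.5 to 2 kb before it (82.3% and 73.6%), the medians come from different genes, and the median difference per gene is -0.03 points.

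The length of the unmethylated stretch ranged widely between genes. Counted as consecutive positions under 20% that touch the start window, it had a median of 2.50 kb in young and 2.42 kb in old cells, against 1.07 kb in both for all genes. Bmp4 had the longest, at 5.83 kb in young and 5.85 kb in old cells, followed in young cells by Nog at 5.59 kb, Fst at 4.66 kb (4.73 kb in old) and Smad3 at 4.04 kb in both. In Nog the young stretch ran from 89298118 to 89303705 of chromosome 11. Only 2 of its 619 positions reached 20% in old cells, the highest at 23.0% (16.9% in young), which split it. The old stretch counted, 2.50 kb at 89298088 to 89300583, does not cover the less methylated gene end at 89302559. The lengths in Nog therefore do not compare 1 stretch. In Tgfbr3 the stretch was 2.23 kb in young and 1.64 kb in old. In Id2 the longest stretch was not the same one at both ages: 2.50 kb at 25094399 to 25096901 of chromosome 12 in young, and 3.68 kb at 25097819 to 25101498 in old, so its lengths do not compare 1 stretch. Tgfb2 had none at its span end. Of the other 34 genes 16 had the same length in both ages, 8 were longer in old, Id2 among them, and 10 were shorter, Nog among them. Over all genes 16.8% were longer and 15.2% shorter, but 5470 of these 21383 genes had no stretch and count as equal. With Tgfb2 counted in the same way, the shares over the 35 genes were 22.9% and 28.6%. Genes without a stretch are also in the medians of length.

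Single positions that passed the authors' test lay mostly inside the gene spans, as did most positions measured. Of the positions of the pathway, 40 (0.0818%) passed an FDR of 0.05 according to the authors' deposited table. Old cells were higher at 18 of them and lower at 22, with both strands of a CpG and neighbours of equal level counted separately. The background was 0.236% of all positions, 0.132% higher and 0.105% lower in old. The calls fell in 15 of the 35 genes, where 38.7% of all genes hold at least 1. There were 11 genes with a call that was higher in old (27.6% of all genes) and 11 with one that was lower (25.1% of all genes). Those 15 genes had a median of 1502 positions, against 621 in the 20 genes without a call, so larger genes were more often among them. Of the 40 positions 37 lay inside a span, as did 88.6% of all positions of the pathway, and 3 in the 2-kb flanks. A mean level of 60% or more was found at 27. Of all 48906 positions of the pathway, 10316 had a mean level from 60% to 80% and 17454 one of 80% or more. In 36 calls (90%) the authors' dispersion was at its most frequent value in young, in old or in both, as in 91.7% of all calls, and 4 calls remained without these. Of the positions measured, called or not, only 22.0% of those of the pathway and 24.0% of all were at such a value. The calls were thus concentrated there. The part of that shared value in the calls was not tested.

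**Figure D4:**
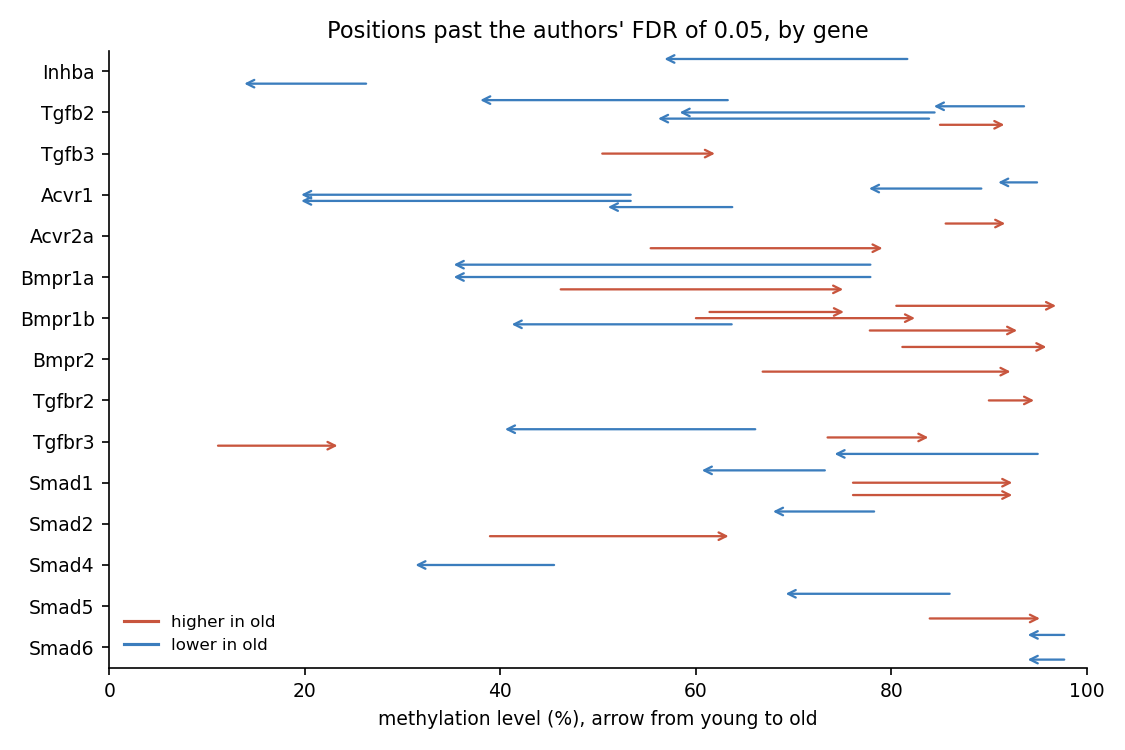
Levels (%) of the 40 positions past an FDR of 0.05 in the authors' deposited table, by gene, each arrow running from the young to the old level, red where old is higher and blue where it is lower. All 5 arrows of Acvr1 point down, 2 of them for the strands of 1 CpG, and 4 of 5 of Bmpr1b point up.

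Receptor genes held 22 of the 40 positions, 12 higher and 10 lower in old. They also held many of the positions measured, from 739 in Tgfbr1 to 3943 in Tgfbr3. Counts of calls by role are not adjusted for this number. Acvr1, a type I receptor shared by activins and BMPs, had 5, all lower in old, the widest from 53.8% to 19.2% on both strands of 1 CpG. Bmpr1b, a type I BMP receptor with the longest span of the set, had 5, of which 4 were higher, such as 59.6% to 82.9% at position 141914253 of chromosome 3. Both positions in Bmpr2 were higher (80.7% to 96.3% and 66.4% to 92.6%), as were both in Acvr2a (55.0% to 79.5% and 85.1% to 92.1%) and the lone one in Tgfbr2 (89.6% to 95.0%). Tgfbr3 had 2 in each direction, among them the only call of the pathway with a mean level under 20% (10.7% to 23.8%).

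Among the ligands only Tgfb2, Inhba and Tgfb3 held called positions. In Tgfb2 4 of 5 were lower in old, 3 of them by 26.2 to 28.6 points, at 51.6 to 65.4 kb after its RefSeq transcript start. Inhba had 2, both lower. The first, at position 16011075 of chromosome 13, lies 776 bp before the RefSeq start of Inhba and went from 82.1% in young to 56.4% in old cells (FDR 0.00465 in the authors' deposited table). The other, 3.83 kb after that start, went from 26.7% to 13.4% (FDR 0.00909 in the authors' deposited table). The Tgfb3 position lay 1.26 kb beyond the less methylated end of the gene and went from 50.01% to 62.4%.

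Smad genes, with 1015 (Smad5) to 3009 (Smad3) positions measured in each, held 10 called positions. Neighbouring positions in Smad1 both went from 75.7% to 92.8%, and another in that gene from 73.6% to 60.2%. Smad2 (78.7% to 67.5% and 38.5% to 63.8%) and Smad5 (86.4% to 68.8% and 83.5% to 95.6%) each had 1 in each direction, and Smad4 had 1 that went from 45.9% to 30.9%. Positions 63952909 and 63952938 of chromosome 9, at 167 and 138 bp beyond the 3′ end of Smad6, both went from 98.1% to 93.5%, the smallest difference among the calls. The 4 antagonists and 3 Id genes held 0.

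Calls on both strands of the same CpG, of which the pathway had 2, were found in Acvr1 and Bmpr1a. Such CpGs occur in 1.47% of all genes. Counted by CpG with both strands listed, they were 2 of 22663 in the pathway and 1039 of 14945647 over all, which are similar shares. The CpG in Acvr1, at 58542575 and 58542576 on chromosome 2 and 24.3 kb inside the gene, went from 53.8% in young to 19.2% in old cells (FDR 0.00145 and 3.84e-05 in the authors' deposited table). The nearest listed positions shared the direction, at 58.9% and 22.1% at 39 bp and at 59.2% and 43.8% at 151 bp on the other side. The positions at 39, 40, 68 and 69 bp hold the same levels, as do both strands of the CpG. They are therefore not separate measurements. The CpG in Bmpr1a, at 34492076 and 34492077 on chromosome 14 and 10.5 kb after its RefSeq start, went from 78.3% to 34.8%, the widest difference among the calls (FDR 0.01995 and 7.60e-05 in the authors' deposited table). The nearest listed positions, at 368 and 517 bp, showed no such fall and stood at 89.9% and 91.4% and at 82.9% and 82.0%. Neither strand of this CpG had the most frequent dispersion value. Another called position of Bmpr1a, 34493453, lies 9.09 kb after the RefSeq start and was higher in old. It went from 45.8% to 75.5% (FDR 0.000272 in the authors' deposited table).

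**Figure D5:**
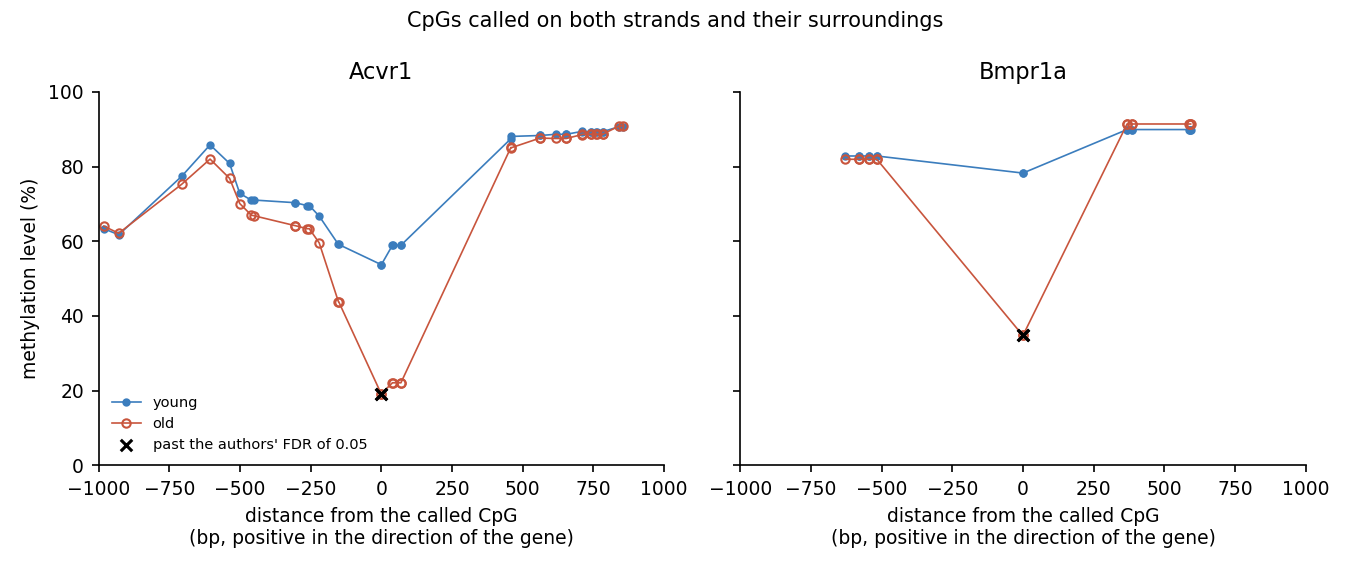
Methylation level (%) of young and old cells within 1000 bp of the CpGs of Acvr1 and Bmpr1a that were called on both strands, by distance in bp from the CpG, with crosses at called positions. In Acvr1 the neighbours dip with the CpG (19.2% in old), and in Bmpr1a the CpG (34.8% in old) has its nearest listed neighbour at 368 bp.

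Short runs of positions with a shared direction were found in 4 genes. A run was defined by at least 6 neighbours that each had p under 0.05 in the authors' deposited table, 1 direction and gaps of at most 100 bp. At least 1 run was held by 4 of 35 genes here and by 9.49% of all genes. Of the 5 runs 2 were higher in old (runs of that kind were in 6.11% of all genes) and 3 lower (4.37%). The run around the Acvr1 CpG covered 6 positions in 71 bp (58542506 to 58542576), with levels shared between positions. It averaged 57.2% (young) and 21.1% (old). A further run of Acvr1, closer to its start, covered 7 positions (82.1% and 72.0%). Bmp6 held a run of 6 positions in 47 bp at 38453662 to 38453708 on chromosome 13, 108 kb inside the gene, at 35.9% in young cells and 8.80% in old cells. Smad1 held the run with most positions, 10 in 104 bp, at 21.1% and 36.2%, and Smad4 a run of 6 positions at 60.5% and 79.4%. Apart from the first run of Acvr1, which held 2, the runs held 0 positions past the FDR of 0.05. The runs came from a search without adjusted p-values and are given as a description.

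The authors also give a dispersion per position and age, which no source used here defines. The mean over a span lay between 0.0441 and 0.0549 in young and between 0.0442 and 0.0590 in old cells. The span mean was higher in old in 24 of 35 genes, with a median difference of 0.000566, against 11889 of 20483 spans and 0.000217 over all genes. Tgfb3 (0.0549 and 0.0590), Gdf11 (0.0513 and 0.0545) and Tgfb1 (0.0498 and 0.0518) differed most upwards, and Tgfbr1 (0.0482 and 0.0468), Acvr2a (0.0464 and 0.0454) and Nog (0.0461 and 0.0452) most downwards. With the median over positions in place of the mean, the median difference of the 35 genes was -0.0004. In start windows 9 of 35 were higher in old, against 9150 of 20749 over all genes. Among start windows under 20%, these were 5 of 28 and 3002 of 9186.

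Another 66 genes of the pathway, from latent TGF-beta binding proteins to further ligands, were all found in the gene table. Their start windows had a median of 20.9% in young and 21.2% in old cells, with 33 higher and 33 lower in old. Of their 131 end windows and 66 spans 0 passed the test with Benjamini-Hochberg adjustment, and 0 had an unadjusted p under 0.05. The widest differences at starts were those of Sost, an inhibitor of Wnt and BMP signalling (31.2% and 34.6%), Acvrl1, a BMP receptor of endothelium (29.3% and 31.5%), and Eng, its co-receptor (58.9% and 60.7%), on the higher side. On the lower side they were those of Amhr2 (68.3% and 65.9%), Inhbc (65.2% and 62.9%) and Bmp10 (70.5% and 68.7%). Over their spans 42 of 66 were higher in old, with a median difference of 0.18 points, and the 3 widest on each side were Inha (59.7% and 62.0%), Bmp15 (75.3% and 77.2%) and Sost (10.9% and 12.6%), and Inhbe (48.9% and 47.6%), Lefty1 (27.7% and 26.7%) and Gdf5 (41.3% and 40.4%).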

How the data were processed

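Bisulfite sequencing libraries of 4 young and 4 old mice were assigned to groups by their labelled age. The submitters' processing notes list Trim Galore, Bismark and edgeR, and the builds mm10 and GRCm38. Not given in the sources used here are their versions and roles, how levels were pooled over libraries and which tool made the p-values. For each position the authors deposited levels (mu) as a fraction per age group, printed here in percent, with a dispersion (phi). Neighbouring positions often hold the same level, as smoothing would give, so they are not independent measurements. The authors' deposited p-value and FDR compare the ages per position.

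Deposited positions count from 0: in promoter sequences 100% of 776920 positions fell on a CpG after adding 1, and 55.3% without. Positions are printed 1-based. Gene spans, strands and promoters came from RefSeq tables of GRCm38.p6; exons and introns were not used here. Levels were averaged over positions with equal weight. A window or span with at least 10 positions was tested by doubling the median of the authors' p-values, adjusted by Benjamini-Hochberg over all protein-coding genes. A run on simulated data used changes far wider than the differences seen here, so it does not give the power of the test for these. All 35 genes passed the minimum. Tests over libraries could not be run, since values per animal are not in this table.

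Genes named in full are those with a called position or run, the 6 widest differences at ends and over spans, the 3 widest changes of phi in each direction, and the most and least methylated of each role. Genes and lists were chosen with earlier results of these data known. Alternatives were windows of 1 kb, minimums of 5 and 20 positions, averaging strands, removal of positions with the most frequent dispersion (0.0438 in young, 0.0434 in old), other FDR limits, and other spans. Python 3.11.15, numpy 2.4.6 and pandas 2.3.3 were used.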

Additional observations from a re-analysis of the deposited data

How the results depend on the processing

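No paired analysis was possible because the deposited columns hold 1 value per age and none per replicate; for the same reason no replicate could be left out. End windows and spans with a call stayed at 0 under each window, minimum, strand, dispersion and chromosome setting tried; at an unadjusted p under 0.05 there were 8 end windows, 0 of them in the pathway. The 40 called positions became 31 at an FDR under 0.01, 54 under 0.1, 34 with at least 10 points, 4 without positions at the most common dispersion and 2 CpGs called on both strands. The median difference at starts (-0.21 points) was -0.0695 with windows of 1 kb, -0.24 without positions at the most common dispersion, -0.17 with strands averaged, -0.24 after subtracting the median of all starts and -0.21 over the 25 genes of known strand, an alternative chosen after seeing the data. The median over spans (0.18 points) was 0.43 without the 2-kb ends, 0.25 with 2 kb added on each side, 0.22 without positions at the most common dispersion and 0.23 with strands averaged, and reversed to -0.21 after subtracting the median of all spans, by construction. The median dispersion difference (0.000566) was 0.000802 without positions at the most common dispersion and reversed to -0.0004 with medians over positions; the cause was not tested. Unknown depth per position limits every value.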
